A study of Mus musculus with 14 samples.

Results

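Transcripts of 8 genes that make, cut or bind hyaluronan were followed in wounded mouse fibroblasts with and without autologous micrograft (AMG). The genes were chosen by name for their known role, but with earlier results of these data known, so the choice was not blind. They are 8 of the 43472 genes that each of the 2 deposited tables lists. They comprise the hyaluronan synthases Has1, Has2 and Has3, the hyaluronidases Hyal1 and Hyal2, the receptor Cd44, the binding protein Tnfaip6 and the proteoglycan Vcan. All 8 passed the minimum mean level for testing. The cells were primary fibroblasts from the tail tips of C57BL/6 mice, grown in medium with serum and wounded by scratching the cell layer. The labels name no transgene or deletion. The untreated group did not receive AMG, whereas the AMG-treated group received a 1:10 dilution in medium of the filtered, soluble material from minced mouse skin, from which cells had been removed. Replicate 1 comprised 1 library per group at each of 1, 5, 12 and 24 h, whereas replicates 2, 3 and 4 cover the 5 h point alone. A scratched monolayer lacks the immune cells, vessels and epidermis of a skin wound. The labels call the replicates biological without naming animals or cultures, so p-values measure the spread between these samples only. In such bulk RNA, fewer cells of a type and less RNA per cell cannot be told apart.

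Hyaluronan is a long, unbranched sugar polymer of the extracellular matrix. Synthases in the plasma membrane build it from UDP-glucuronic acid and UDP-N-acetylglucosamine and push it out of the cell, whereas hyaluronidases cut it. In healing skin it swells the provisional matrix through which fibroblasts migrate, and its cross-linking by proteins such as those encoded by Tnfaip6, Ptx3 and Vcan gives the pericellular coat its mechanical strength.

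Reads assigned to genes numbered 12545537 to 34696529 over the 14 libraries. Levels are given as normalised counts, which are read counts divided by a size factor for each library. The 2 tables (replicate 1, and replicates 2 to 4) were scaled separately, and levels were therefore not compared across them. Fibroblast markers were present in every library, with 9 of 9 above 0, and their summed normalised count at 5 h was 447877 to 626065 in the untreated and 350882 to 453651 in the AMG-treated libraries of replicates 2 to 4. Of 7 leukocyte markers, 2 to 3 were at 0 in each of these libraries, Cd3e in all of them, and the sum was 102 to 327 without and 90.3 to 239 with AMG. Csf1r (59.8 to 182) and Cd68 (9.75 to 54.2) were above 3 reads in all of them, and Adgre1 ranged from 1.39 to 77.3. Of 5 keratinocyte markers, Krt1, Krt5 and Krt14 were at 0 in these 6 libraries, and the sum was 23.7 to 71.9 without and 28.7 to 57.3 with AMG. Krt10 was above 3 reads in all 6 (15.3 to 52.2), and Trp63 ranged from 0 to 41.6. The 3 endothelial markers summed to 5.50 to 12.5 without and 3.82 to 20.3 with AMG. The part of these levels in the results was not tested. In replicate 1, transcripts of 88 ribosomal protein genes took 7.003% of the reads of the untreated 5 h library and 5.10% of the treated 1 h library, against 2.27% to 3.47% in the other 12.

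At 5 h, in replicates 2 to 4, Has1 was higher with AMG by 3.13 on the log2 scale, with no overlap between the groups, and it was the member with the largest difference. Hyal2 was higher and Hyal1 lower, each without overlap, whereas Cd44 and Tnfaip6 were higher in every treated library than in the untreated library of the same replicate number. Has2, Has3 and Vcan differed by less than their spread. With limma, 0 of the 8 genes passed an adjusted p of 0.05, against 1.24% of the 13096 genes tested, and 3 of the 8 (Has1, Hyal1 and Cd44) had an unadjusted p under 0.05, against 23.1% of all genes. Has1 came nearest to the threshold. With edgeR 0 of 8 passed and with DESeq2 1 of 8, Has1, against 1.03% and 11.0% of all genes. When the replicate number was added as a block, 5 of 8 passed (Has1, Hyal2, Cd44 and Tnfaip6 higher, Hyal1 lower), against 37.2% of all genes with limma. The 4 higher and 1 lower compare with 17.9% and 19.3% of all genes. The same 5 passed with edgeR and the block, against 37.0% of all genes. With edgeR over all 4 replicates at 5 h, 1 of 8 (Has1) passed with the block and 0 of 8 with the table as batch, against 3.66% and 1.61%. Groups did not overlap for 3 of 8 members, against 28.7% of all genes tested, of which 2 were higher and 1 lower, against 15.1% and 13.6%. The log2 fold change was above 0 for 5 of 8 members and for 48.4% of all genes. The median log2 fold change was 0.16 over the members and -0.02 over all genes.

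**Figure D1:**
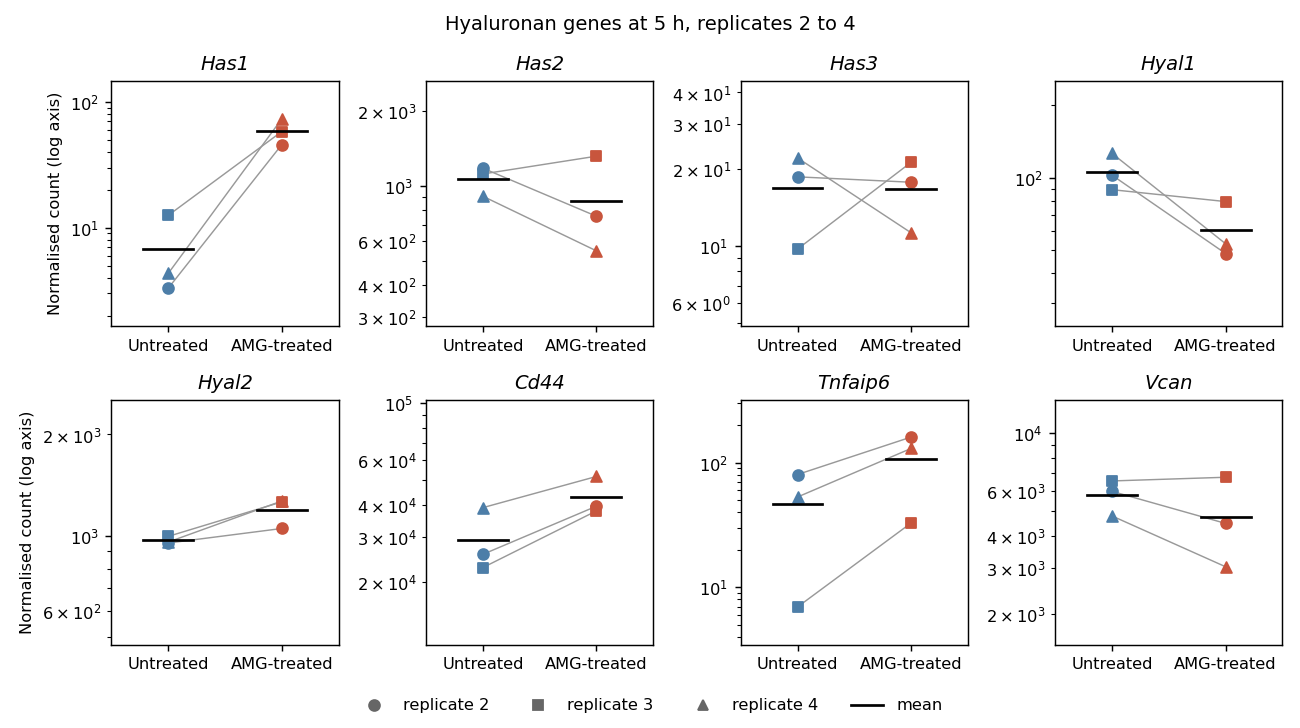
Normalised counts of the 8 genes at 5 h on log axes, with untreated libraries on the left and AMG-treated libraries on the right of each panel, 1 symbol per replicate, a line joining the libraries with the same replicate number, and a bar for the mean of 3 libraries. Has1 lies between 3.30 and 12.5 without AMG and between 45.8 and 73.4 with AMG, whereas the lines of Has2, Has3 and Vcan run in different directions.

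Has1 encodes a synthase that is known to respond to inflammatory cytokines. The gene lies on chromosome 17 (mm10, 17843323 to 17855205, minus strand). At 5 h its normalised count was 3.30, 12.5 and 4.33 in untreated replicates 2, 3 and 4, and 45.8, 58.2 and 73.4 in the AMG-treated replicates. Every treated library was above every untreated one, and untreated replicate 3 was the highest of its group. The means were 6.72 ± 5.06 and 59.1 ± 13.8 (SD, n = 3 each), a ratio of 8.80. The log2 fold change was 3.13 (SE 0.55, 95% interval 1.83 to 4.42) with an adjusted p = 0.0529 in limma, and with the replicate block the adjusted p in limma was 0.00100. The untreated values rest on 3, 9 and 8 reads and the treated values on 36, 71 and 65 reads. In replicate 2, where the untreated library lay at the floor of 3 reads, the ratio was 13.9 with an exact conditional interval of 4.39 to 70.4, which covers counting error only. The call depended on the libraries used: limma gave an adjusted p = 0.0462 without untreated replicate 3 and 0.0308 without AMG-treated replicate 3, whereas omitting any other library gave 0.201 to 0.240. Without AMG-treated replicate 3, however, the log2 fold change was 3.12 and the unadjusted p in limma rose from 0.000743 to 0.00315. The adjusted p depends on all genes, of which that fit called 1146 higher and 1053 lower, against 127 and 35 in the main fit.

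Over time in replicate 1, the Has1 level was highest at 1 h in both groups, and the treated level was above the untreated one at 1, 5 and 24 h. The normalised count at 1 h was 105 without and 836 with AMG, a ratio of 7.997 (95% counting interval 6.53 to 9.86). At 5 h the pair was 32.8 and 79.7 (ratio 2.43, interval 1.495 to 4.14). The 12 h pair was 27.1 and 29.5 (ratio 1.09, interval 0.655 to 1.81), and the 24 h pair 18.4 and 54.0 (ratio 2.94, interval 1.80 to 4.93). Only the 12 h interval includes 1. From 1 h to 24 h the level was 5.69-fold lower without and 15.5-fold lower with AMG. The 5 h ratio was above 1 in all 4 replicates. With no second library at 1, 12 and 24 h, these ratios have no replicate check, and in replicate 1 the untreated 5 h and the treated 1 h library are those with the high ribosomal protein share, whose part in the ratios was not tested.

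Has2 encodes the main synthase of connective tissue cells, and lies on chromosome 15 (mm10, 56665627 to 56694539, minus strand). Its normalised count at 5 h was 1179, 1118 and 910.3 in untreated replicates 2, 3 and 4, and 757, 1317 and 550.1 in the treated ones. The groups overlapped, with treated replicate 3 the highest and treated replicate 4 the lowest of the 6 libraries. The log2 fold change was -0.38 (SE 0.31, 95% interval -1.11 to 0.36, adjusted p = 0.493 with limma, and 0.111 with the replicate block). It was -0.72 (adjusted p = 0.0516 with limma) without AMG-treated replicate 3, -0.09 without AMG-treated replicate 4 and -0.00687 with edgeR over replicates 1 to 4 and the table as batch. The fit without AMG-treated replicate 3 called 1146 of all genes higher and 1053 lower, against 127 and 35 in the main fit. In replicate 1 the treated level was instead above the untreated level at 1 h (9473 against 6900.3), at 5 h (6012 against 3447) and at 12 h (2393 against 1488), with ratios of 1.37, 1.74 and 1.61. At 24 h it was below it, with 1085 against 2050.02, a ratio of 0.530. The treated 1 h and untreated 5 h libraries of replicate 1 carry the high ribosomal protein share, whose part in these ratios was not tested. Over the 4 replicates at 5 h, Has2 was higher with AMG in 2 and lower in 2. The level was highest at 1 h in both groups and by 24 h was 3.37-fold lower without and 8.73-fold lower with AMG. The antisense transcript Has2os shares 182 exon bases with Has2 on the opposite strand, 4.30% of the Has2 exon length. The strand setting of the counting was not given in the sources used here, so the 2 genes may share reads. Has2os was far lower, at 13.5 ± 6.47 without and 11.3 ± 3.46 with AMG (SD, n = 3 each), with overlapping groups and a log2 difference of -0.20 (SE 0.54, adjusted p = 0.856 with limma).

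Has3 encodes the third synthase, which is better known from epithelial cells, and lies on chromosome 8 (mm10, 106870242 to 106884566, plus strand). Its normalised count at 5 h was 18.7, 9.75 and 22.2 in untreated replicates 2, 3 and 4, and 17.8, 21.3 and 11.3 in the treated ones. The groups overlapped fully, and the log2 fold change was 0.02 (SE 0.50, 95% interval -1.16 to 1.205, adjusted p = 0.983 with limma). At 7 to 41 reads per library, differences of either sign inside this interval remain compatible with the data. In replicate 1 it ranged from 3.28 to 20.97, and the largest ratio, 5.90 at 5 h, rests on 2 reads in the untreated library (interval 1.47 to 51.4). Has3 shares 352 exon bases, 5.52% of its length, with Chtf8 on the opposite strand.

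To compare the synthases with each other, levels were divided by exon length. Per kb of exon, Has2 supplied 87.8% to 99.1% of the synthase reads in every library. The share of Has1 at 5 h was 0.259%, 1.03% and 0.437% in untreated replicates 2, 3 and 4, and 5.29%, 3.94% and 10.99% in the treated ones. All 3 treated shares were above all 3 untreated shares. The replicate 1 shares were 1.40% without and 7.64% with AMG at 1 h, 0.883% and 1.23% at 5 h, 1.67% and 1.14% at 12 h, and 0.831% and 4.44% at 24 h. It was thus higher in the treated library at 1, 5 and 24 h and lower at 12 h.

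**Figure D2:**
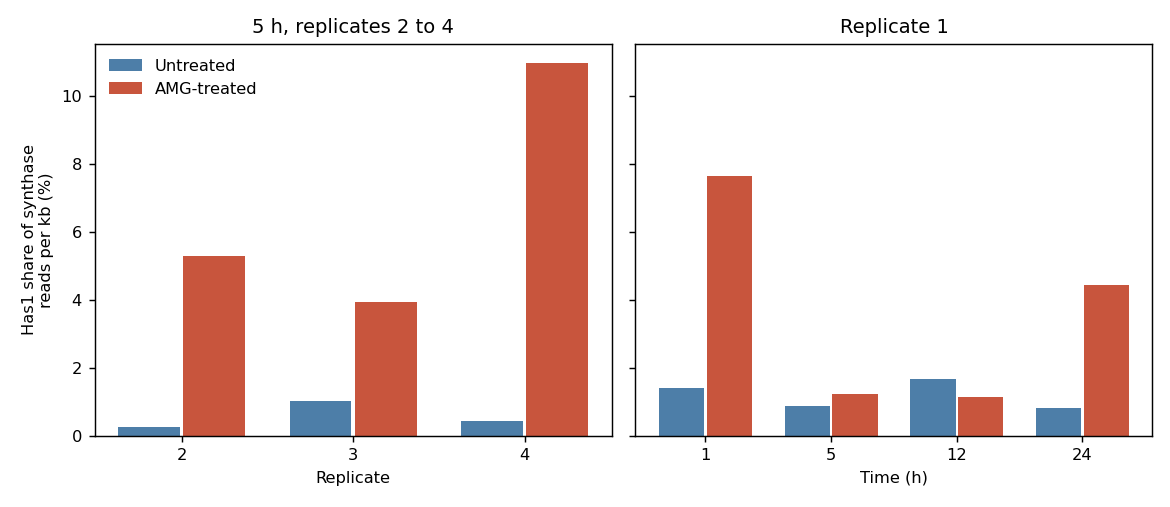
Share of Has1 among the reads per kb of the 3 synthases, in percent, for untreated and AMG-treated libraries, by replicate at 5 h (left) and by time in replicate 1 (right), with 1 library per bar. Treated shares at 5 h in replicates 2 to 4 lie between 3.94% and 10.99%, above the untreated shares of 0.259% to 1.03%.

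In replicate 1, 3 of the 8 genes had their highest level at 1 h in both groups, namely Has1, Has2 and Tnfaip6, and the promoters of the 2 that had an entry in the RefSeq table (GRCm38.p6) are shown here because their letters can be set beside these early levels. Of the 8 genes, 6 had an entry. A window of 300 bases, from 250 before to 50 after the start, was searched on both strands for the cAMP response element (CRE) TGACGTCA, the AP-1 element TGACTCA, the NF-kB site and the CArG box. Capitals mark the match. Positions are counted back from the RefSeq start, whereas each printed run stops earlier, at the base before the start that GENCODE annotates. Has1 (chr17:17855206-17855438, minus strand) held the CRE, which starts 83 bases before the start and which 1.79% of 32851 promoter windows held. Tnfaip6 (chr2:52037863-52038008, plus strand) held the AP-1 element on the reverse strand, 142 bases before the start, as did 5.20% of windows.
Has1: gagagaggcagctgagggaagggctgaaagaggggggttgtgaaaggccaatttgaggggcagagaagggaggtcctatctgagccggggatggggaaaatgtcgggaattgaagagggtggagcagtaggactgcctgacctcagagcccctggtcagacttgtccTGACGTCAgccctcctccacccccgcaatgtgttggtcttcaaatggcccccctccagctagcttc
Tnfaip6: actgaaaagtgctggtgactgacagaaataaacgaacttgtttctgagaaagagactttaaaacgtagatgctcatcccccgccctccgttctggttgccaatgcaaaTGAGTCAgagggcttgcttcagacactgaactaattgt
Hyal2 held an NF-kB site match, GGGAATCCCC, 238 bases before the RefSeq start, as did 8.46% of windows. Its run (chr9:107568913-107568982, plus strand) lies inside the Hyal2 gene as GENCODE annotates it, from 107567945, and so not upstream of that gene start. Hyal1, Cd44 and Vcan held none of the 4 motifs. A match is a run of letters and not a measured binding site.

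The hyaluronidases Hyal1 and Hyal2 lie side by side on chromosome 9 (mm10, 107576927 to 107581710 and 107567945 to 107572779, both plus strand). Hyal2 is anchored at the cell surface and cuts long hyaluronan into fragments, which the lysosomal enzyme Hyal1 breaks down further. At 5 h their values differed in opposite directions. The normalised count of Hyal1 was 102, 89.1 and 126 in untreated replicates 2, 3 and 4, and 48.3, 79.5 and 53.1 in the treated ones. All treated values were below all untreated values, and replicate 3 had the smallest gap. The means were 106 ± 18.7 and 60.3 ± 16.8 (SD, n = 3 each), and the log2 fold change was -0.82 (SE 0.29, 95% interval -1.50 to -0.14, adjusted p = 0.165 with limma). The replicate block gave an adjusted p = 0.0336 in limma, and the fit without treated replicate 3 gave -1.03 on the log2 scale with an adjusted p = 0.04997, just under the threshold. That fit called 1146 of all genes higher and 1053 lower, against 127 and 35 in the main fit, and the adjusted p depends on all genes. With edgeR over replicates 1 to 4 the difference was -0.39 with the block (adjusted p = 0.685) and -0.35 with the table as batch (adjusted p = 0.782). In replicate 1 Hyal1 was lower with AMG at 1 h (126 without against 74.8 with AMG), at 12 h (197 against 82.9) and at 24 h (207 against 151), with ratios of 0.595, 0.421 and 0.731. At 5 h it was higher, at 19.7 against 48.0 (ratio 2.44, interval 1.30 to 4.97). That untreated library, with 12 reads of Hyal1, is the one in which ribosomal protein genes took 7.003% of the reads, and the part of this in the ratio was not tested. Hyal1 shares 1920 exon bases, 50.8% of its length, with Naa80 (listed under its older symbol Nat6) on the same strand, so its count is uncertain where reads could not be assigned.

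Hyal2 was more abundant and less spread. Its normalised count at 5 h was 953, 997 and 959 in untreated replicates 2, 3 and 4, and 1052, 1262 and 1269.5 in the treated ones. The groups did not overlap, with treated replicate 2 nearest to the untreated range. The means were 969.5 ± 24.0 and 1194 ± 123 (SD, n = 3 each). Its log2 fold change, 0.30 (SE 0.12, 95% interval -0.000143 to 0.59), had an adjusted p = 0.217 with limma and 0.0442 with the replicate block. Under the length correction with the block it was 0.23 (adjusted p = 0.0871 with limma), past the threshold no longer. With edgeR over replicates 1 to 4 and the block it was 0.23 (adjusted p = 0.428). The replicate 1 ratio was 0.919 at 1 h and 0.998 at 5 h, both with intervals that include 1. At 12 h and 24 h it was 1.21 (interval 1.13 to 1.29) and 1.61 (interval 1.52 to 1.72), and the treated level at 24 h, 2126, was the highest of the 8 libraries.

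Cd44 encodes the main cell surface receptor for hyaluronan, which links the polymer to the cytoskeleton, and lies on chromosome 2 (mm10, 102811141 to 102901665, minus strand). It was the most abundant of the 8 genes per kb of exon. At 5 h its normalised count was 25563, 22687 and 38928 in untreated replicates 2, 3 and 4, and 39437, 37807 and 51554 in the treated ones. The groups overlapped only through untreated replicate 4, which lay above treated replicate 3, and replicate 4 was the highest in both groups. The means were 29059 ± 8667 and 42933 ± 7511 (SD, n = 3 each), and the log2 fold change was 0.59 (SE 0.25, 95% interval 0.00106 to 1.18, adjusted p = 0.216 with limma). With the replicate block the adjusted p in limma was 0.00371. In replicate 1 too, the treated library was above the untreated library at each time. At 1 h it held 32976 without and 49475 with AMG (ratio 1.5003), and at 5 h 31677 and 55388 (ratio 1.75). These 2 pairs contain the libraries with the high ribosomal protein share, whose part was not tested. The later pairs were 17888 and 35771 at 12 h (ratio 2.00) and 15151 and 28936 at 24 h (ratio 1.91). Over the 7 pairs of libraries, including those of replicates 2 to 4, each Cd44 ratio was above 1 with a counting interval that excluded 1, which held for no other of the 8 genes. From 1 h to 24 h it was 2.18-fold lower without and 1.71-fold lower with AMG.

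Tnfaip6 encodes TSG-6, a secreted protein that transfers heavy chains onto hyaluronan and so cross-links it, and lies on chromosome 2 (mm10, 52038009 to 52056686, plus strand). Its normalised count at 5 h was 80.3, 6.96 and 53.0 in untreated replicates 2, 3 and 4, and 160.3, 32.8 and 129.9 in the treated ones. Replicate 3 was the lowest in both groups, and the groups overlapped because treated replicate 3 lay below untreated replicates 2 and 4. Within a replicate number, the treated library was higher each time, with ratios of 2.00, 4.71 and 2.45. The log2 fold change was 1.45 (SE 0.98, 95% interval -0.88 to 3.78, adjusted p = 0.403 with limma), and the replicate block gave an adjusted p = 0.00495 in limma. Without untreated replicate 3, the log2 fold change was 0.43. With edgeR over replicates 1 to 4 it was 0.56 with the block (adjusted p = 0.685) and 0.51 with the table as batch (adjusted p = 0.856). Replicate 1 differed from the others at 5 h, with 216 without and 61.9 with AMG, a ratio of 0.286 (interval 0.214 to 0.380). At 1 h it was 644 and 1810.1, a ratio of 2.81 (interval 2.55 to 3.09), and at 12 h 25.6 and 11.4, a ratio of 0.446. At 24 h the ratio was 0.796, with an interval of 0.525 to 1.197. The level at 24 h was 13.6-fold below that at 1 h without and 47.9-fold below it with AMG, the widest spans of the 8 genes between these times. The treated 1 h and untreated 5 h libraries carry the high ribosomal protein share, and its part was not tested.

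Vcan encodes versican, a large proteoglycan that binds hyaluronan through its N-terminal domain, and lies on chromosome 13 (mm10, 89655312 to 89742509, minus strand). Its normalised count at 5 h was 5964, 6546 and 4788 in untreated replicates 2, 3 and 4, and 4481, 6765 and 3044 in the treated ones. The groups overlapped, and replicate 3 was the highest and replicate 4 the lowest in each group. The log2 fold change was -0.34 (SE 0.29, 95% interval -1.03 to 0.35, adjusted p = 0.508 with limma and 0.0601 with the replicate block). It was -0.04 under the length correction (adjusted p = 0.763 with limma and the block), -0.63 without AMG-treated replicate 3, -0.05 without AMG-treated replicate 4 and 0.15 with edgeR over replicates 1 to 4 and the table as batch. The ratio in replicate 1 was below 1 at 1 h (0.640) and 24 h (0.725) and above 1 at 5 h (2.77) and 12 h (1.08). The 5 h pair, 4481 without and 12403 with AMG, contains the untreated library with the high ribosomal protein share, whose part was not tested, and over the 4 replicates at 5 h Vcan was higher in 2 and lower in 2.

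**Figure D3:**
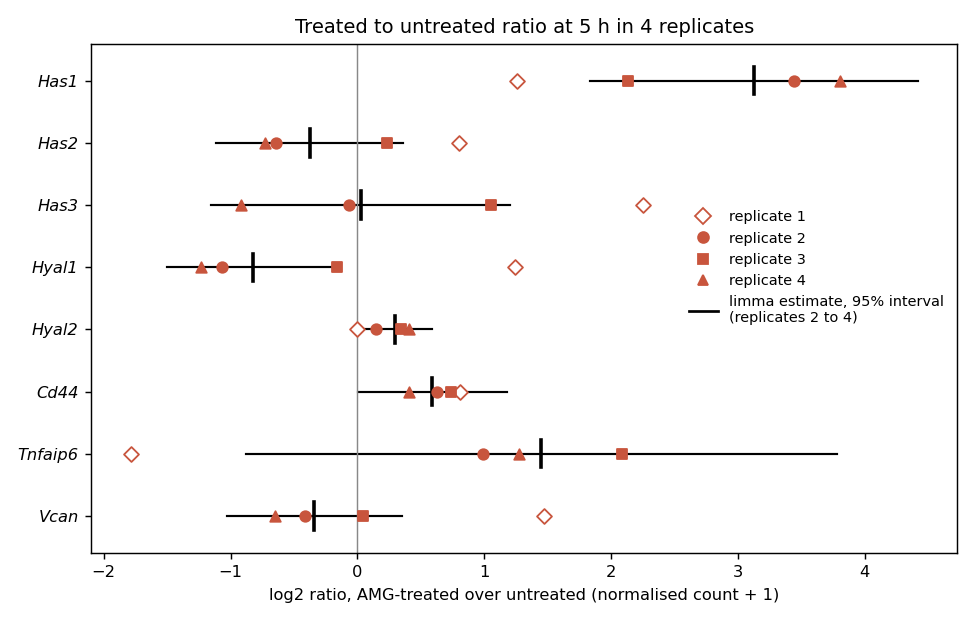
Log2 ratio of AMG-treated to untreated normalised count (plus 1) at 5 h for each gene, with filled symbols for replicates 2 to 4, open diamonds for replicate 1, a tick for the limma estimate over replicates 2 to 4 and a line for its 95% interval. All 4 symbols lie above 0 for Has1 and Cd44, whereas replicate 1 lies on the other side of 0 from replicates 2 to 4 for Hyal1 and Tnfaip6 and, at -0.00352, for Hyal2.

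**Figure D4:**
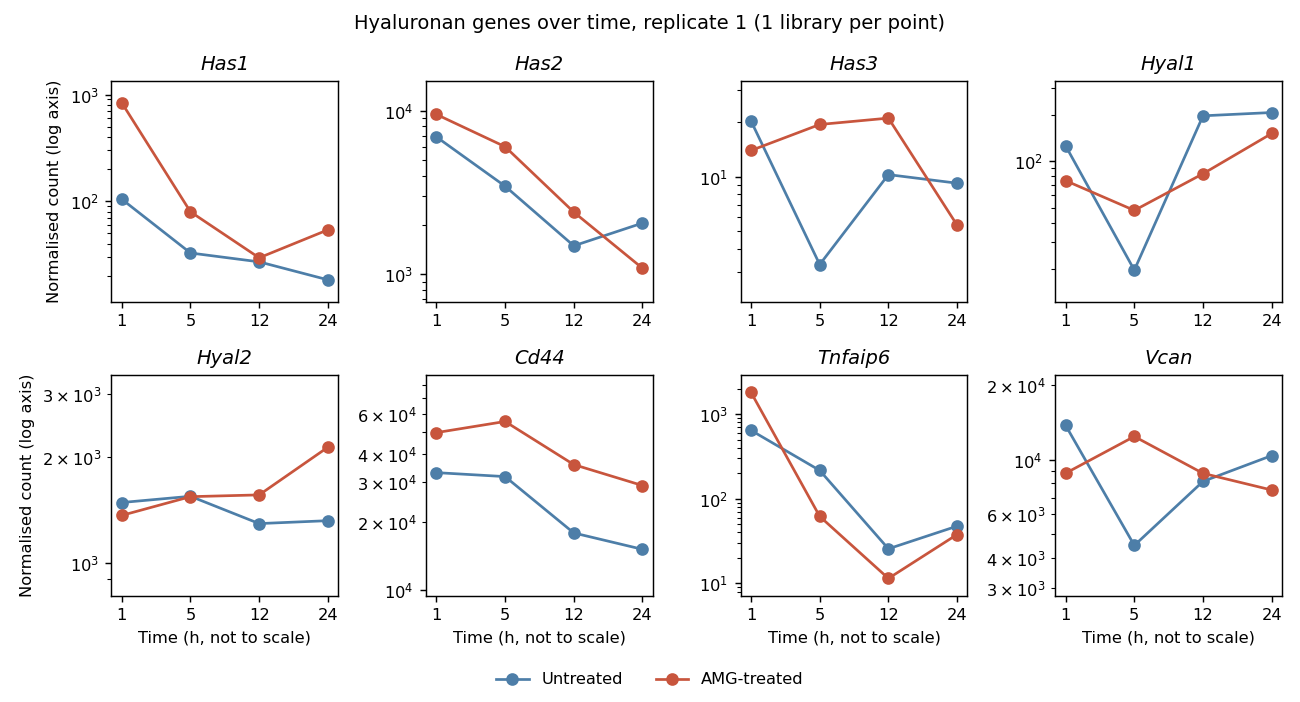
Normalised counts of the 8 genes at 1, 5, 12 and 24 h in replicate 1 on log axes, with 1 library per point and the time axis not to scale. Has1, Has2 and Tnfaip6 are highest at 1 h in both groups, and the treated line of Cd44 runs above the untreated line at each time.

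In replicate 1, described without a test, the log2 ratio was above 0 for 4 of 8 members at 1 h (47.0% of 13498 genes), for 6 at 5 h (49.8%), for 6 at 12 h (48.9%) and for 3 at 24 h (51.6%). It was above 1 for Has1 and Tnfaip6 at 1 h, for Has1, Has3, Hyal1 and Vcan at 5 h, for none at 12 h and for Has1 at 24 h, against 11.3%, 13.3%, 5.93% and 6.05% of genes. It was below -1 for none at 1 h, for Tnfaip6 at 5 h, for Hyal1 and Tnfaip6 at 12 h and for none at 24 h, against 10.7%, 12.6%, 6.90% and 8.05% of genes. Over the 4 replicates at 5 h, 2 of 8 members (Has1 and Cd44) were higher with AMG in all 4 and 0 were lower in all 4, against 15.7% and 16.0% of 12844 genes.

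Set in order per kb of exon, the untreated medians at 5 h (n = 3) were 3773 for Cd44, 412 for Vcan, 291 for Hyal2, 264 for Has2, 31.0 for Tnfaip6, 27.1 for Hyal1, 2.93 for Has3 and 0.958 for Has1. The ranges of Has2 (215 to 278) and Hyal2 (289 to 303) did not overlap, nor did that of Vcan (331 to 453) with Hyal2. Tnfaip6 (4.07 to 47.0) spanned the whole range of Hyal1 (23.6 to 33.4), and Has3 (1.53 to 3.48) overlapped with Has1 (0.730 to 2.77), so these neighbours did not differ beyond their spread. In the treated libraries Has1 had a median of 12.9 per kb (range 10.1 to 16.2) and lay above Has3, whose median was 2.79 (range 1.77 to 3.34).

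Another 44 genes of hyaluronan metabolism were listed by role, of which 29 were abundant enough to be tested. This list too was drawn up with earlier results of these data known. In limma 2 were called higher with AMG and 0 lower, and with the replicate block 8 were higher and 9 lower, against 0.970% and 0.267% of all genes without and 17.9% and 19.3% with the block. The count of genes called higher without the block was 0 when untreated replicate 2, untreated replicate 4, AMG-treated replicate 2 or AMG-treated replicate 4 was left out, 1 without untreated replicate 3, and 5 (with 5 lower) without AMG-treated replicate 3. At an unadjusted p under 0.05 there were 9 of the 29, of which 5 were higher and 4 lower, against 23.1% of all genes. The median log2 fold change of the 29 was -0.03, against -0.02 over all genes.

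The 7 genes of precursor synthesis, which make the 2 nucleotide sugars, had 0.36 as their median log2 fold change, with 5 above 0 (48.4% of all genes), and groups without overlap for 4, all of them higher (15.1% of all genes). Gfpt1 and Gfpt2 encode enzymes of the rate-limiting step towards UDP-N-acetylglucosamine. Gfpt1, added here after its values were seen, averaged 2467 ± 152 normalised counts without and 2471 ± 588 with AMG (SD, n = 3 each). Its groups overlapped and hardly differed, by -0.02 in log2 units, and limma gave 0.956 as the adjusted p. Gfpt2, whose mean was below that of Gfpt1 in both groups, was called. Its normalised count was 389, 466 and 298 in untreated replicates 2, 3 and 4, and 1763, 1376 and 1279 in the treated ones. The treated values lay well above the untreated ones, by 1.94 on the log2 scale (SE 0.21, adjusted p = 0.0190 with limma). In replicate 1 it was 1.45 times the untreated level at 1 h and 3.68 times at 5 h, with ratios of 1.06 at 12 h and 1.03 at 24 h. Of the later enzymes of the same branch, chosen here after their values were seen, Uap1 differed by 1.06 on the log2 scale (SE 0.19, adjusted p = 0.0533 with limma and 0.000117 with the replicate block) and Gnpnat1 by 0.65 (SE 0.13, adjusted p = 0.0721 with limma and 0.00235 with the block), so that over all 6 libraries both passed in limma with the block and neither without it. With the block, limma called 4 precursor genes higher and 1 lower. The lower one, Ugp2, differed by -0.30 (SE 0.19, adjusted p = 0.383 with limma and 0.0287 with the block) with overlapping groups.

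Among the 8 tested matrix partners, 2 were above 0 and 6 below, and Ptx3 was called. It encodes a secreted pentraxin that binds TSG-6 and heavy chains and so stabilises the hyaluronan network. Its normalised count was 2286, 1349 and 564 in untreated replicates 2, 3 and 4, and 16519, 8896 and 8376 in the treated ones. The groups were far apart, by 3.15 on the log2 scale (SE 0.52, adjusted p = 0.0452 with limma). Replicate 1 gave a ratio above 1 at 1 h (2.97), 5 h (2.28) and 12 h (2.09) and below 1 at 24 h (0.880). With the replicate block, limma called 1 matrix partner higher and 2 lower. The 2 lower, both with overlapping groups, were Hapln1 and Itih2. Hapln1 differed by -1.04 (SE 0.77, adjusted p = 0.448 with limma and 0.000251 with the block). Itih2 differed by -0.59 (SE 0.34, adjusted p = 0.338 with limma and 0.0184 with the block).

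No gene of the other roles was called by limma in the fit of all 6 libraries without the block. Over the 29 genes of all roles together, DESeq2 without the block called 6 higher and 2 lower. It called 11.0% of all genes tested in either direction. Of the 4 tested proteases that cleave versican, all 4 had a log2 fold change below 0, where 48.4% of all genes lay above it. For 2 of them the groups did not overlap (13.6% of all genes were lower without overlap), and the median was -0.78. Adamts5 had 3015, 2366 and 1554 normalised counts in untreated replicates 2, 3 and 4, and 771, 738 and 308 in the treated ones. Its groups did not overlap and differed by -1.99 on the log2 scale (SE 0.40, adjusted p = 0.0710 with limma and 1.35e-05 with the replicate block). In replicate 1 it was 1.04 times the untreated level at 1 h and lower with AMG at 5, 12 and 24 h, with ratios of 0.552, 0.430 and 0.330. Of the 5 tested breakdown genes, 2 were above 0 and 3 below. Cemip2 (listed as Tmem2), a transmembrane protein known to bind and degrade hyaluronan, differed by -0.58 on the log2 scale (SE 0.19, adjusted p = 0.153 with limma and 0.0162 with the replicate block) without overlap. In replicate 1, however, its ratio was 2.46 at 5 h (493 without and 1212 with AMG), and between 0.956 and 1.21 at the other times. Cemip, which also degrades hyaluronan and was chosen here after its values were seen, had 6912, 20356 and 3661 normalised counts in untreated replicates 2, 3 and 4, and 15606, 26691 and 18058 in the treated ones. The groups overlapped through untreated replicate 3, and the difference was 1.29 on the log2 scale (SE 0.59, adjusted p = 0.243 with limma and 0.00641 with the replicate block). Its replicate 1 level was lower with AMG at 1 h (18889 without and 12895 with) and higher at 5 h (5435 and 27663), 12 h (8186 and 36902) and 24 h (6348 and 36338). Of the 5 tested receptors, 3 were above 0 and 2 below. Tlr4, a receptor of innate immunity that also senses hyaluronan fragments, differed by -0.83 on the log2 scale (SE 0.27, adjusted p = 0.149 with limma and 0.0154 with the replicate block), again without overlap. In replicate 1 the Tlr4 ratio was 0.558 at 1 h and above 1 at 5, 12 and 24 h. Of the receptors above 0, chosen after their values were seen, Tlr2 differed by 1.63 (SE 0.70, adjusted p = 0.226 with limma and 0.000575 with the block) with overlapping groups, and Layn by 0.67 (SE 0.20, adjusted p = 0.126 with limma and 0.00164 with the block) without overlap. Hmmr, below 0 and chosen likewise, differed by -1.01 (SE 0.56, adjusted p = 0.316 with limma and 0.00397 with the block) with overlapping groups. With the block, limma called 2 receptors higher and 2 lower.

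**Figure D5:**
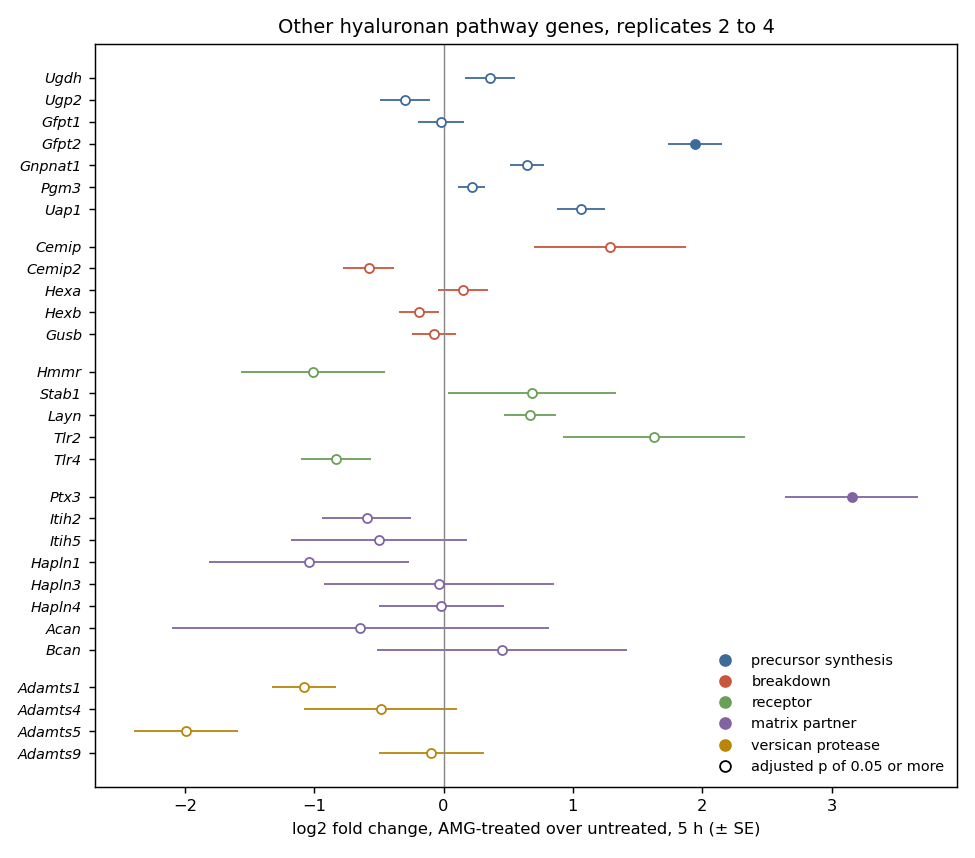
Log2 fold change (± SE) at 5 h in replicates 2 to 4, AMG-treated over untreated, for the 29 tested genes of the hyaluronan list, coloured by role, with filled symbols for an adjusted p under 0.05 in limma and open symbols for the rest. Gfpt2 and Ptx3 are the filled symbols, and all 4 versican proteases lie below 0.

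The genes whose pattern over the 8 libraries of replicate 1 was nearest to that of Has1, by Pearson's r of log2(normalised count + 1) among 13497 other genes, were Grasp (r = 0.98), Mcts2 (0.98), Riok2 (0.98), Rabgef1 (0.97) and C2cd4b (0.97). In all 5 the treated 1 h library was the highest of the 8, as for Has1, which follows from how they were picked and is no separate result. In C2cd4b that library held a normalised count of 115 against 1.76 in the untreated 1 h library. It also carried a high ribosomal protein share (5.10%), whose part was not tested. Among the other 7 members, r with Has1 was 0.80 for Tnfaip6, 0.74 for Has2 and 0.69 for Cd44, and between -0.17 and 0.30 for the rest. These 8 points share libraries, scaling and times, and are given as a description.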

How the data were processed

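RNA from 14 libraries was sequenced with a stranded poly(A) kit. Per the labels, the authors aligned reads to mm10 with TopHat2 2.0.13 and counted them per gene with HTSeq 0.5.3p3. The strand setting and annotation release are not given in the sources used here. As deposited, each value is a gene's normalised signal, which the authors obtained by dividing counts by DESeq size factors, separately in each table. Divided by the value of 1 read, 100% of values came out whole within a tolerance of 0.1. Rows without a gene name numbered 0.

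Replicates 2 to 4 at 5 h were compared with limma 3.58.1 in R 4.3.3 (lmFit, eBayes with trend) on log2(normalised count + 1), which understates changes of low genes, over 13096 genes with a mean of at least 10. Genes were called at a Benjamini-Hochberg adjusted p under 0.05, two-sided. The replicate number was no term of this fit, because the study's methods name none. The numbers were checked as pairs: across genes, the correlation of deviations from the group means was 0.65, 0.76 and 0.70 for equal numbers and -0.59 to 0.12 for unequal ones. What a number shares is not labelled. Replicate 1 was described without p-values. Its intervals are exact conditional binomial intervals (95%), which, like the floor of 3 reads, cover counting error only, since the reads carry no molecular identifiers.

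Alternatives were the replicate block, other pseudocounts (0.1 and 10), other filters (any value above 0, or 50 as the minimum mean), no trend, upper quartile rescaling, a length correction, count tests on the whole reads (edgeR 4.0.16, also over replicates 1 to 4, and DESeq2 1.42.0) and omitting each library. The scripts were tested on simulated data. Loci and exon lengths are from GENCODE on GRCm38 (mm10), promoters from RefSeq. The 8 genes and the lists were chosen with earlier results of these data known. Of the 44 listed genes, those called were named, and per role the tested gene with the largest fold change without overlap.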

Additional observations from a re-analysis of the deposited data

Results flagged for a closer look

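For 3 of the 8 genes, the log2 ratio of treated to untreated in replicate 1 lay on both sides of 0 over 1, 12 and 24 h, with counting intervals that excluded 0 at each time given here. Each time has 1 pair of libraries, and the difference between times was not tested. Of 13498 genes, 47.0%, 48.9% and 51.6% lay above 0 at 1, 12 and 24 h. How many of them lay on both sides was not counted, so the 3 genes are not a result about the members. The treated 1 h library carried a high ribosomal protein share (5.10%), whose part was not tested. Has2, the main synthase, was above 0 at 1 h (0.46) and 12 h (0.68) and below 0 at 24 h (-0.92). Tnfaip6, the gene of TSG-6, had 1.49 at 1 h and -1.10 at 12 h. Vcan was below 0 at 1 h (-0.64) and 24 h (-0.46) and above it at 12 h (0.11). Under the length correction, however, its 12 h value turned below 0. The 5 h values were left out of this comparison where the 4 pairs at 5 h did not all point the same way. In replicate 1 alone they were 0.80 for Has2, -1.79 for Tnfaip6 and 1.47 for Vcan. With 5 h taken from replicate 1 alone, Hyal1 also lay on both sides of 0, at -0.74, 1.24, -1.24 and -0.45 for the 4 times in order. In the 4 pairs at 5 h, no replicate's ratio stood far from the others for any of the 8 genes by Dixon's test. Chance alone passes that test about 1 time in 20 for each gene. With 4 values it flags only a gap above 0.829 of the range, so it cannot show that the replicates were alike. Tnfaip6 was not flagged at -1.79 in replicate 1, against 0.99, 2.09 and 1.28 in replicates 2, 3 and 4.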

How the results depend on the processing

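Of 158 alternative values of the members' 5 h fold changes, 130 kept direction and side of the threshold, 20 passed the threshold where the reported value had not, and 8 turned direction. The latter were Has3, at -0.0122 with edgeR, -0.0215 with DESeq2, -0.0247 with edgeR and the replicate block, and -0.31 (untreated replicate 3), -0.04 (AMG-treated replicate 2) and -0.16 (AMG-treated replicate 3) without 1 library, in a range up to 0.27, and Vcan, at 0.15 and 0.10 with edgeR on replicates 1 to 4, with the table as batch and with the replicate block. In replicate 1, the log2 ratio of Vcan at 12 h turned to -0.047 under the length correction. The cause was not tested.

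Members called higher, 0 in the report, numbered 4 with the replicate block, 3 with the block and the length correction, 4 with edgeR and the block, and 1 each with a pseudocount of 10, with DESeq2 and with edgeR on 4 pairs with the block. The last was chosen after seeing the data. Members called lower, 0 in the report, numbered 1 under each of the first 3. Leaving out 1 library gave 0 to 1 in either direction. Pathway genes called higher, 2 in the report, numbered 8 with the replicate block, 1 with edgeR, 6 with DESeq2 and 0 to 5 without 1 library. Those called lower, 0 in the report, numbered 9, 0, 2 and 0 to 5. All genes called higher, 127 in the report, numbered 2345 with the replicate block, 2263 with the block and the length correction, 2416 with edgeR and the block, 323 with edgeR on 4 pairs, 861 with DESeq2, 56 without trend and 1 to 1146 without 1 library. Those called lower, 35 in the report, numbered 2527, 2019, 2436, 164 and 579 under the first 5 of these and 0 to 1053 without 1 library. Of the single omissions, the highest counts came without AMG-treated replicate 3.

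Depth limits Has1 and Has3, whose untreated 5 h values in replicates 2 to 4 rest on 3 to 41 reads, and neither reached the stricter mean of 50.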
